A study of Schizosaccharomyces pombe with 32 samples.

Results

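Heat shock proteins and their partner chaperones keep proteins folded: small heat shock proteins hold unfolding proteins in solution, Hsp70 and its Hsp40 partners bind and release them with ATP, Hsp90 finishes kinases and other clients, and Hsp104 pulls aggregates apart. In fission yeast, heat shock factor (Hsf1) drives many of these genes, and the kinase Sty1 with the transcription factor Atf1 drives stress genes more widely. The genes described here are 10 heat shock protein and chaperone genes of Schizosaccharomyces pombe: hsp16, hsp9, hsp104, hsp90, ssa1, ssa2, sks2, mas5, psi1 and wos2. They were chosen by gene symbol with earlier results of these data known, and those with a probe set are all reported whatever their values. Of the 10 genes, 9 had a probe set among the 4972 on the arrays, 1 each. hsp104 matched no probe set by its symbol, was not analysed here, and takes no part in any count.

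The stressed group came from 2 batch cultures of the homothallic strain JB50 (h90, a strain whose cells can switch mating type and mate with each other), grown in YES medium at 32 °C and given 0.5 mM hydrogen peroxide, with total RNA taken at 11 times: at 0 min, without peroxide by its label, in the first stretch at 5, 10, 15 and 30 min, in the middle at 50, 60 and 90 min, and late at 120, 180 and 240 min. The untreated group came from 2 further cultures of the same strain and medium without peroxide, sampled at 0, 60, 120, 180 and 240 min. Each culture and time gave 1 single-colour Affymetrix array, 22 stressed and 10 untreated, so each of the 16 groups held 2 arrays from separate cultures. The growth notes give more than one starting density for stressed cultures without saying which array had which, so density and culture cannot be told apart. Values are the deposited signal per probe set on a linear scale whose calibration is unknown, and a change is a difference of log2 signal. Signals of different probe sets have no common scale, so levels are compared within a gene only. In RNA of a whole culture, fewer cells with a transcript and less of it per cell cannot be told apart.

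Across all arrays the median signal lay between 1.52 and 2.0, lowest in stressed culture 2 (at most 1.63) and highest in untreated culture 1 (at least 1.95). The 30 min array of stressed culture 2 stood apart, its best correlation with another array being 0.909, where the rest reached 0.973 or more. The strain can mate, and a list of 14 mating and meiosis genes, all with a probe set and none at 0, had a summed signal of 3.45 to 7.18 in stressed arrays and 8.55 to 45.2 in untreated arrays, without overlap. The median log2 signal of the list did overlap, at -2.63 to -1.69 in stressed arrays and -1.89 to -0.583 in untreated arrays. Every comparison of a stressed with an untreated culture therefore comes with the difference in summed signal, whose part in the results was not tested.

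After peroxide some chaperone genes stood higher and others stayed near their starting signal, and the line did not run between small and large proteins. hsp16 rose about as much as any member and was the only one to pass the test after peroxide. Without peroxide its change at 60 min was 2.7 in untreated culture 1 and -0.53 in untreated culture 2. Its change beyond that of untreated growth did not pass at any time tested. The Hsp70 gene ssa1 had a change as large as that of hsp16, with more spread between arrays, and the Hsp40 gene psi1 and the small heat shock protein gene hsp9 stood higher by less. The Hsp90 gene hsp90, the Hsp70 genes ssa2 and sks2 and the p23-type co-chaperone gene wos2 had mean changes between -0.28 and 0.14 at every stressed time. The Hsp40 gene mas5 went with neither: at 50 min its change was -1.47 in stressed culture 1 and 0.40 in stressed culture 2. The plot of signal by array shows each course.

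**Figure D1:**
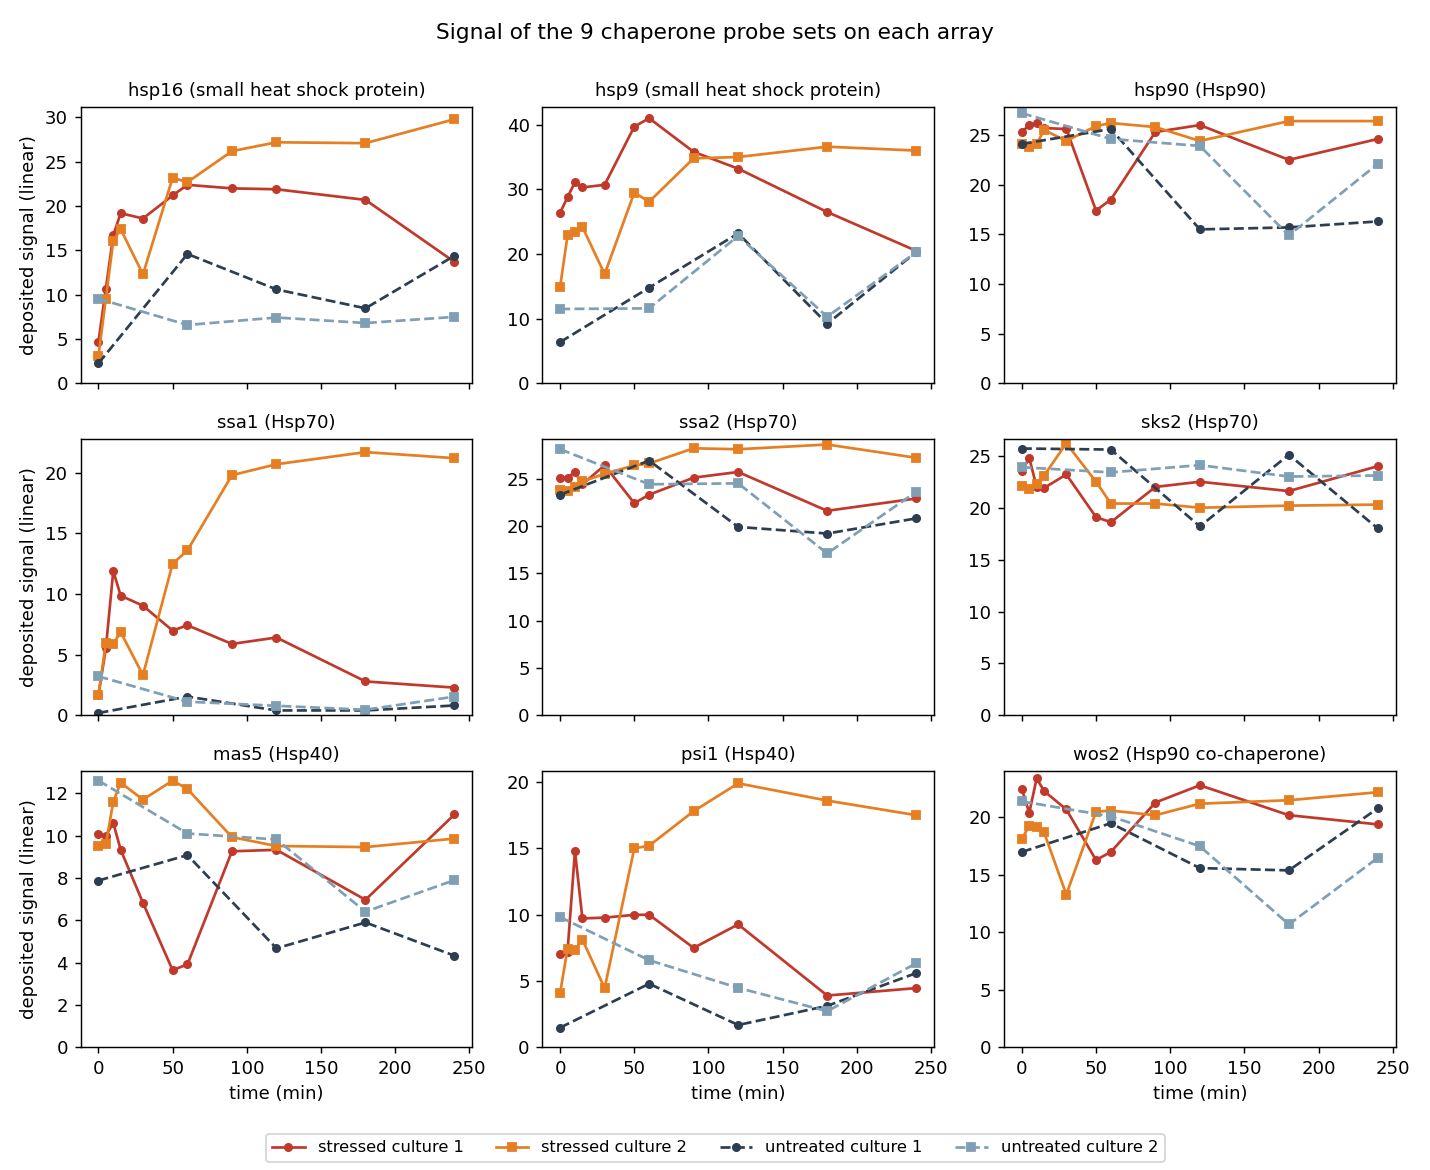
Deposited signal (linear scale, starting at 0) of the 9 chaperone probe sets against time in min, 1 point per array, with solid lines for the 2 stressed cultures and dashed lines for the 2 untreated cultures. hsp16 and ssa1 stand above their 0 min signal at every later time in both stressed cultures, while ssa2 and sks2 stay between 18.6 and 28.6 in them.

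The small heat shock protein gene hsp16 (probe set 1776181_at) codes for a protein of the alpha-crystallin family. Its signal in stressed culture 1 was 4.65 at 0 min, then 10.7, 16.7, 19.2 and 18.6 at 5, 10, 15 and 30 min, 21.2, 22.4 and 22.0 at 50, 60 and 90 min, and 21.9, 20.7 and 13.7 at 120, 180 and 240 min. In stressed culture 2 it was 3.1 at 0 min, then 9.57, 16.1, 17.4 and 12.3 up to 30 min, 23.2, 22.7 and 26.2 up to 90 min, and 27.2, 27.1 and 29.8 at the last 3 times. Both arrays of every later time thus lay above both arrays of 0 min, from 5 min on, and most of the increase on the log2 scale was there by 15 min. The mean signal was 22.5 ± 0.19 at 60 min, against 3.88 ± 1.1 at 0 min (SD, n = 2 each). By limma's moderated test over all arrays, with Benjamini-Hochberg adjustment over all probe sets, hsp16 rose by 2.55 ± 0.51 (SE) at 50 min (adjusted p = 0.0275), 2.57 at 60 min (adjusted p = 0.0318), 2.66 at 90 min (adjusted p = 0.0292) and 2.69 at 120 min (adjusted p = 0.0358) on the log2 scale, each with the same SE. The 60 min change is 5.93-fold. The other times missed the threshold, with changes of 1.41 and 2.11 at 5 and 10 min (adjusted p = 1.0 each), 2.27 at 15 min (adjusted p = 0.295) and 1.99 at 30 min (adjusted p = 0.0646), and of 2.64 at 180 min (adjusted p = 0.0517) and 2.41 at 240 min (adjusted p = 0.232). With the culture as a block the 30 min change passed as well (adjusted p = 0.0297), as did those of 8.17% of all probe sets. The order of the group means from 50 to 240 min is not firm: all 6 lay between 21.8 and 24.6, and the arrays of these times overlap.

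hsp16 was 1 of 9 members called at 50, 60, 90 and 120 min, times at which 0.302%, 0.543%, 0.322% and 0.161% of all probe sets were called, and 1.09% at 60 min with the culture as a block. At 30, 180 and 240 min limma called 0 members, against 1.07%, 0.0402% and 0.0201% of all probe sets, and at 5, 10 and 15 min it called 0 members and 0.0% of all. An unadjusted p under 0.05 was had by 1 member at each of these 6 times, against 0.422%, 1.33%, 3.0%, 14.4%, 5.11% and 3.84% of all in time order, and by hsp16, hsp9 and ssa1, 3 members, at 50, 60, 90 and 120 min, against 19.1%, 18.9%, 12.9% and 9.11%. The calls of hsp16 rest on both 0 min arrays. They were lost without the 0 min array of stressed culture 1 or 2, where the change at 60 min was 2.86 and 2.28. They were also lost without stressed culture 1 or 2 as a whole, where it was 2.87 and 2.27. Such fits leave 1 array in a group, so only the changes are given. Without a whole stressed culture the error holds no spread between stressed cultures. With only the probe sets of 1 gene tested, the adjusted p of hsp16 at 60 min was 0.0697 by limma. The moderated F-test over all 10 stressed times gave hsp16 an adjusted p of 0.146, the lowest of the members, and called 0 of the 9 against 0.483% of all probe sets (1 member at an unadjusted p under 0.05). The F-test called hsp16 in 5 of the 16 alternatives, of which 3 are the same test. That test is the fit of the stressed arrays alone (adjusted p = 0.048, with 0.0805% of all called). Leaving out either untreated culture repeats it, since single untreated arrays add no spread. hsp16 also passed with all 4 arrays of 0 min as the reference (adjusted p = 0.013, with 1.31%). It passed too over the stressed times up to 60 min only, fitted without the later stressed arrays (adjusted p = 0.0277, with 11.4%).

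hsp9 (probe set 1772415_at) is grouped here with hsp16 as a small heat shock protein gene, though its product resembles Hsp12 of budding yeast. It started high in the stressed cultures and moved less than hsp16. Its signal in stressed culture 1 was 26.4, 30.3, 41.0, 33.2 and 20.5 at 0, 15, 60, 120 and 240 min. In stressed culture 2 it was 14.9, 24.2, 28.1, 35.0 and 36.0 at the same times. From 50 to 180 min both arrays lay above both 0 min arrays, and at 240 min culture 1 lay below its own start while culture 2 did not. The mean signal was 34.5 ± 9.12 at 60 min, against 20.7 ± 8.15 at 0 min (SD, n = 2 each). The change of 0.77 ± 0.35 (SE) did not pass limma's test (adjusted p = 0.246), and was 1.19 or 0.36 without the 0 min array of stressed culture 1 or 2. With all 4 arrays of 0 min, stressed and untreated, as the reference it was 1.38 and passed (adjusted p = 0.0413), as 7.34% of all probe sets did, since hsp9 stood lower in untreated cultures at 0 min. In that fit hsp9 was called at 50 and 90 min too (adjusted p = 0.0384 and 0.0492), where 6.92% and 2.31% of all were.

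Among the Hsp70 genes, ssa1 (probe set 1776873_at) and ssa2 (probe set 1770295_at) code for cytosolic Hsp70 of the Ssa type, and sks2 (probe set 1774734_at) for the type that sits at ribosomes and binds nascent chains. ssa1 had a signal in stressed culture 1 of 1.66 at 0 min, then 5.54, 11.9, 9.87 and 9.04 at 5, 10, 15 and 30 min, 6.99, 7.43 and 5.89 at 50, 60 and 90 min, and 6.42, 2.8 and 2.29 at 120, 180 and 240 min. In stressed culture 2 it was 1.72 at 0 min, then 5.97, 5.9, 6.86 and 3.32 up to 30 min, 12.5, 13.6 and 19.8 up to 90 min, and 20.7, 21.7 and 21.2 at the last 3 times. The cultures started alike and both stood above the start at all 10 later times, with the highest signal at 10 min in culture 1 and at 180 min in culture 2. The mean signal was 10.5 ± 4.33 at 60 min, against 1.69 ± 0.0474 at 0 min (SD, n = 2 each). The change at 60 min was 2.57 ± 1.12 (SE, adjusted p = 0.232 by limma). Its SE, from the spread of all 16 groups, was larger than the 0.51 of hsp16. With the arrays of 0 and 60 min alone the change was called (adjusted p = 0.03), as were those of 8.23% of all probe sets, in a fit that leaves out all other arrays. The same held at 50 min (adjusted p = 0.0197), with 11.3% of all called.

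The signal of ssa2 kept within 21.6 to 26.4 in stressed culture 1 and 23.7 to 28.6 in stressed culture 2. Its change at 60 min was 0.03 ± 0.19 (SE, adjusted p = 0.951 by limma), and with all 4 arrays of 0 min as the reference it was -0.01. The change of ssa1 at 60 min exceeded that of ssa2 by 2.27 in culture 1 and 2.82 in culture 2, a difference for which no test was made. In untreated cultures 1 and 2 the same difference was 2.75 and -1.31. Whether either of these probe sets also reads the transcript of the other gene was not tested. The signal of sks2 at 60 min was 18.6 and 20.4, against 23.5 and 22.1 at 0 min, so both later arrays lay below both earlier ones. The change was -0.23 ± 0.19 (SE, adjusted p = 0.522 by limma).

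hsp90 (probe set 1772050_at) codes for the cytosolic Hsp90. Its signal in stressed culture 2 stayed between 23.8 and 26.4 at all 11 times. In stressed culture 1 it lay between 22.5 and 26.2 except at 50 and 60 min, with 17.4 and 18.5. The change at 60 min was -0.17 ± 0.23 (SE, adjusted p = 0.722 by limma), with -0.45 in culture 1 and 0.12 in culture 2. wos2 (probe set 1777811_at), the gene of an Hsp90 co-chaperone of the p23 type, was lowest at 50 min in stressed culture 1, at 16.3, and at 30 min in stressed culture 2, at 13.3 on the array that stood apart. At the other times it lay between 17.0 and 23.4, and the change at 60 min was -0.11 ± 0.24 (SE, adjusted p = 0.832 by limma). The probe sets of hsp90, ssa2, sks2 and wos2 ranked at percentile 91.6 or above on all 32 arrays. Whether signals that high still follow the amount of RNA in proportion was not tested. The probe set of hsp16 reached percentile 99.9, and that of hsp9, with the highest signal of any member (41.0), ranked higher still, so the same limit holds for them.

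The Hsp40 genes mas5 and psi1 code for J-domain partners of Hsp70, of the Ydj1 and the Sis1 type of budding yeast. psi1 (probe set 1776482_at) had a signal in stressed culture 1 of 7.06, 14.8, 10.0, 9.27 and 4.47 at 0, 10, 60, 120 and 240 min. In stressed culture 2 it was 4.12, 7.34, 15.2, 19.9 and 17.5 at the same times. The order is that of ssa1: a maximum at 10 min in culture 1, and a later one that lasted in culture 2. The change at 60 min was 1.19 ± 0.82 (SE, adjusted p = 0.435 by limma). mas5 (probe set 1771903_at) stood lower at 50 and 60 min in one culture and higher in the other. It had a signal in stressed culture 1 of 10.1, 6.83, 3.65, 3.92 and 9.26 at 0, 30, 50, 60 and 90 min, and in stressed culture 2 of 9.53, 11.7, 12.6, 12.2 and 9.93 at the same times. The change of mas5 at 60 min was -0.50 ± 0.51 (SE, adjusted p = 0.617 by limma), and the change of psi1 exceeded it by 1.87 in culture 1 and 1.52 in culture 2. In untreated cultures 1 and 2 the change of psi1 less that of mas5 was 1.48 and -0.26 at 60 min.

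Counting arrays rather than changes, both arrays of a stressed time lay above both 0 min arrays for 3 of the 9 members at 5 min (hsp16, ssa1, psi1), against 7.48% of all probe sets. At 10 min 4 did, with mas5 added, against 11.1% of all, and at 15 min 4, with hsp90 in place of mas5, against 19.1%. At 30 min hsp16, ssa1 and ssa2 did, 3 members against 26.3% of all. At 50 and 60 min the 4 members were hsp16, hsp9, ssa1 and psi1, against 24.6% and 24.1% of all. At 90 and 120 min there were 5 members, against 20.9% and 23.8%, at 180 min 3, against 13.7%, and at 240 min hsp16 and ssa1, against 15.8%. Only hsp16 and ssa1 lay above at all 10 times. Below both 0 min arrays lay sks2 at 60, 90 and 180 min, and mas5 at 120 and 180 min, where 33.5%, 29.5%, 24.3% and 19.0% of all probe sets did so at 60, 90, 120 and 180 min.

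**Figure D2:**
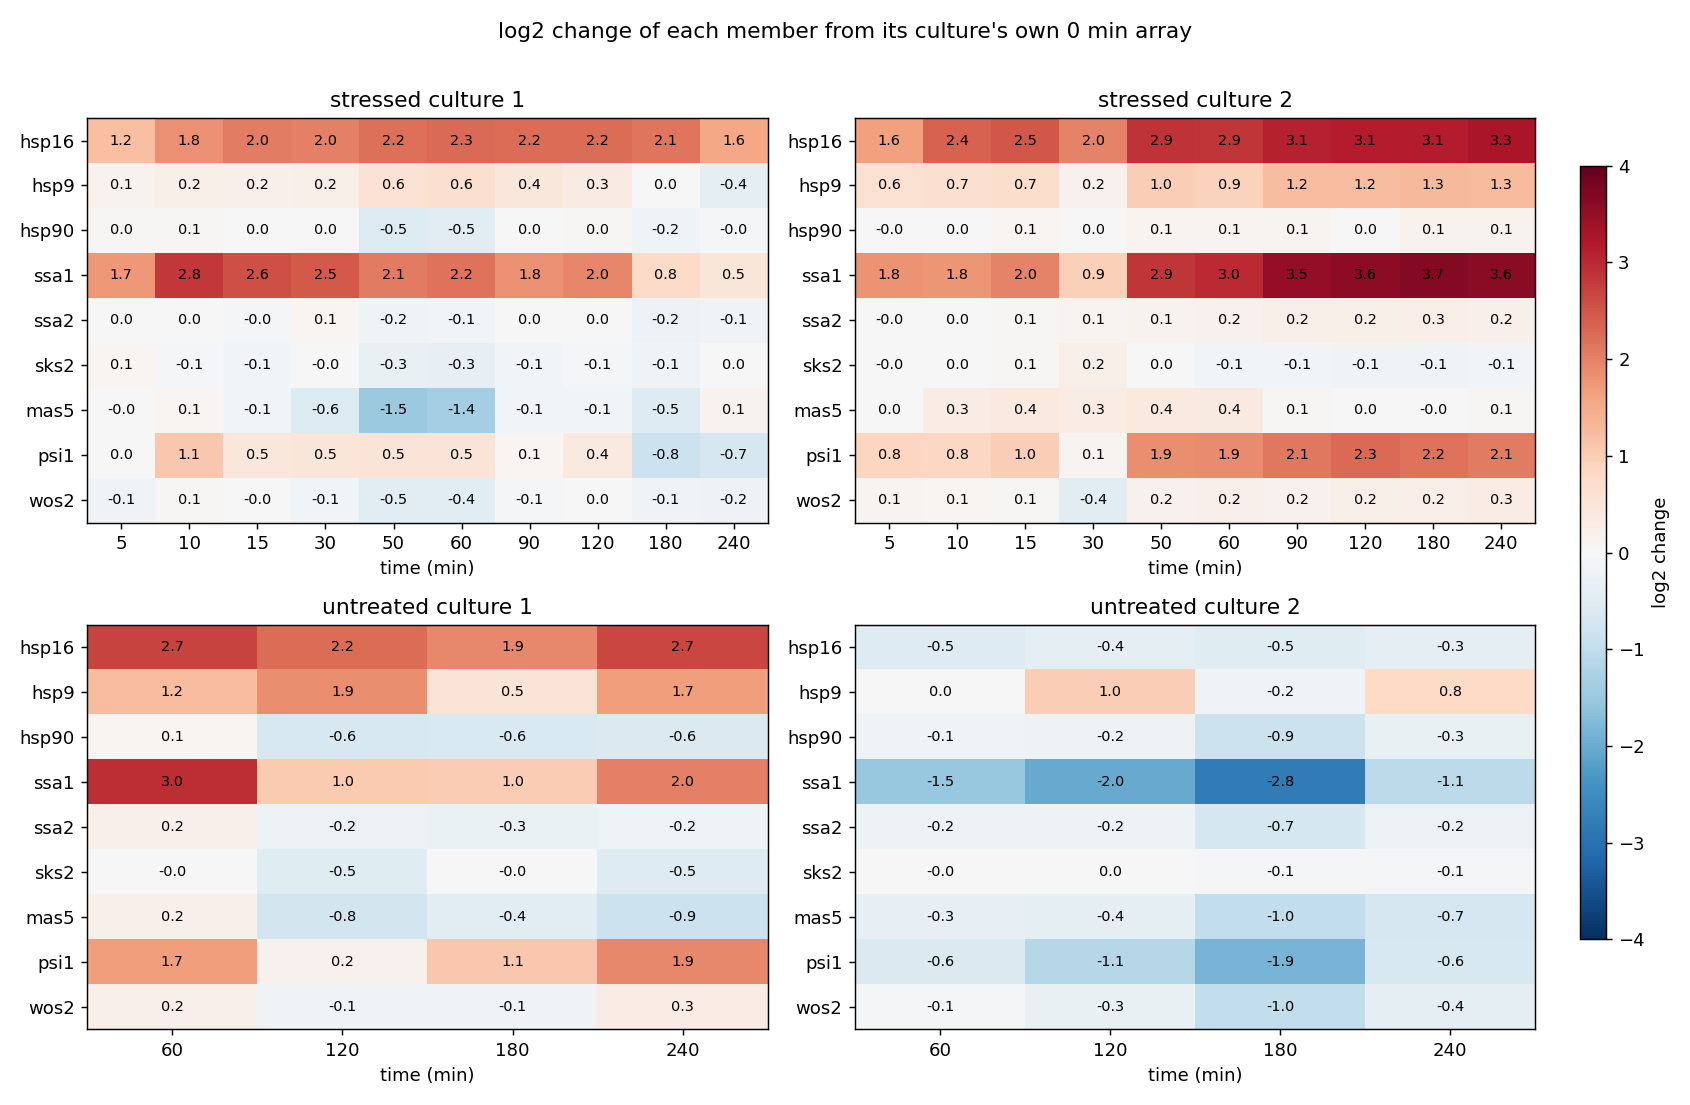
log2 change of each of the 9 members (rows) from the 0 min array of its own culture, at each later time in min (columns), for the 2 stressed and the 2 untreated cultures; 1 array per cell, with the value printed and the colour running from -4 (blue) to 4 (red). hsp16 and ssa1 are positive in every cell of both stressed cultures, and in untreated culture 1 they are positive too, while in untreated culture 2 both are negative throughout.

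To set the small heat shock proteins against the large chaperones, the mean change of hsp16 and hsp9 was compared with that of ssa1, ssa2, sks2 and hsp90 within each culture. Since the genes were chosen with earlier results known, no test was made. At 60 min the small exceeded the large by 1.13 in stressed culture 1 and 1.11 in stressed culture 2, a mean of 1.12 ± 0.01 (SD, n = 2). At 15 min the difference was 0.51 and 1.05, and at 240 min it was 0.52 and 1.31. In untreated cultures the small also stood above the large, by 1.15 and 0.21 at 60 min and by 1.97 and 0.65 at 240 min, and these values overlap those of the stressed cultures at the same times.

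Class means hid most of what the members did. hsp16 and ssa1, 1 gene of each class, had nearly the same change at 60 min: the change of hsp16 less that of ssa1 was 0.10 in stressed culture 1 and -0.11 in stressed culture 2. They were less alike at other times, with -1.0 and 0.6 at 10 min and 1.1 and -0.36 at 240 min. Within the classes the gaps at 60 min were wider. The change of hsp16 exceeded that of hsp9 by 1.63 and 1.96 at 60 min. Of the large chaperones other than ssa1, the mean change at 60 min was -0.30 in stressed culture 1 and 0.05 in stressed culture 2. With ssa1 left out of the large class, the small exceeded it by 1.75 and 1.84. In untreated cultures 1 and 2 at 60 min that difference was 1.86 and -0.13, and the change of hsp16 less that of hsp9 was 1.48 and -0.55. Untreated culture 1 thus had gaps of similar size without peroxide, and untreated culture 2 did not.

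**Figure D3:**
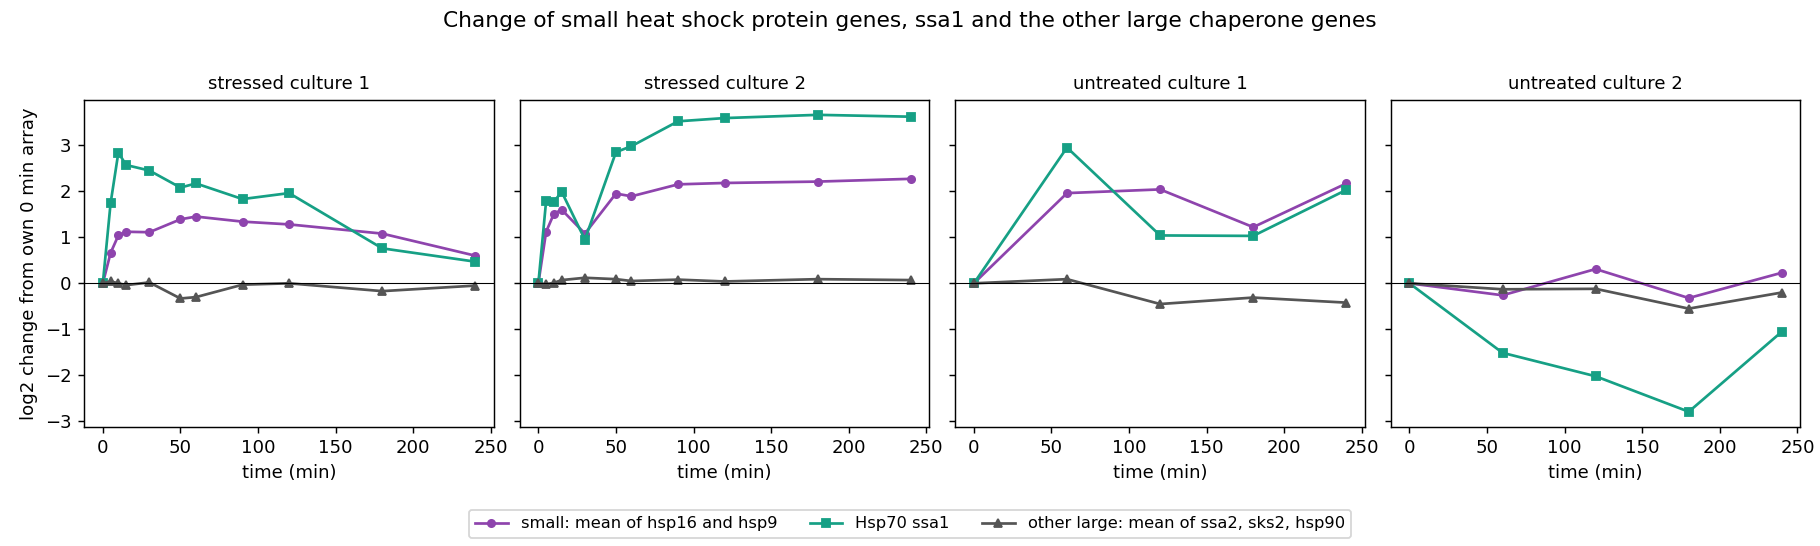
Mean log2 change from the culture's own 0 min array against time in min, for the small heat shock protein genes hsp16 and hsp9 (circles), the Hsp70 gene ssa1 (squares) and the other large chaperone genes ssa2, sks2 and hsp90 (triangles), in each stressed and untreated culture; 1 array per point. ssa1 runs above the small genes from 5 to 120 min in stressed culture 1, and at all later times but 30 min in stressed culture 2. In untreated culture 2 it is the line that goes lowest.

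The stressed cultures did not keep together, and which members differed changed with time. At 240 min hsp16 had a change of 1.56 in stressed culture 1 and 3.26 in stressed culture 2. For ssa1 it was 0.47 and 3.62, for psi1 -0.66 and 2.09, and for hsp9 -0.37 and 1.27. hsp16 was the member of these 4 with the largest change left in culture 1. For hsp90, ssa2, sks2, mas5 and wos2 the changes at 240 min lay between -0.21 and 0.30 in both cultures. mas5 and hsp90 had differed earlier: at 60 min the change of mas5 was -1.36 in culture 1 and 0.36 in culture 2. Each such value rests on a single array and was not tested.

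Untreated cultures showed how far the same genes move without peroxide. hsp16 had signals of 2.26, 14.6, 10.6, 8.47 and 14.4 at 0, 60, 120, 180 and 240 min in untreated culture 1, and of 9.55, 6.59, 7.43, 6.81 and 7.5 in untreated culture 2. At 0 min untreated culture 1 lay below both stressed arrays and untreated culture 2 above them. At 60 min hsp16 had 22.4 and 22.7 in stressed cultures, against 14.6 and 6.59 in untreated ones, and the groups did not overlap. Nor did they at 120 and 180 min. At 240 min they overlapped, with 13.7 and 29.8 in stressed cultures, against 14.4 and 7.5 in untreated ones. The change at 60 min beyond that of untreated growth was 1.49 ± 0.72 (SE, adjusted p = 0.752 by limma), 1.75 at 120 min (adjusted p = 0.497), 1.93 at 180 min (adjusted p = 0.282) and 1.25 at 240 min (adjusted p = 0.556). None of these passed. Without untreated culture 1 the 60 min value was 3.10, and without untreated culture 2 it was -0.13. In the latter fit untreated culture 1 alone gives the reference, with its change of 2.7. At 180 min the value was 3.13 without untreated culture 1 and 0.73 without untreated culture 2. Such fits leave 1 untreated array per time. Their error holds no spread between untreated cultures, so only the changes are given. The rise of hsp16 in stressed cultures is thus not shown to exceed that of untreated ones by this test with both untreated cultures in it.

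ssa1 had signals of 0.2, 1.55, 0.41, 0.41 and 0.819 in untreated culture 1 at 0, 60, 120, 180 and 240 min, and of 3.22, 1.13, 0.792, 0.466 and 1.55 in untreated culture 2. At each of the 4 later times both stressed arrays lay above both untreated ones. The difference of changes was 1.85 ± 1.59 (SE) at 60 min (adjusted p = 0.782 by limma) and 3.27 at 120 min (adjusted p = 0.605). The lowest ssa1 signals ranked as low as percentile 7.2 of their array, and the floor of the signal is unknown, so a fold from them has no known bound. psi1 had 10.0 and 15.2 in stressed cultures at 60 min, against 4.8 and 6.57 in untreated ones, with a difference of changes of 0.64 ± 1.16 (SE, adjusted p = 0.883 by limma).

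Among the members hsp9 alone was called in untreated cultures. It had signals of 6.38, 14.8, 23.2, 9.22 and 20.3 at 0, 60, 120, 180 and 240 min in untreated culture 1, and of 11.5, 11.6, 22.8, 10.3 and 20.3 in untreated culture 2. Both cultures had high signals at 120 and 240 min and lower ones at 180 min. The mean was 20.3 ± 0.0193 at 240 min, against 8.96 ± 3.64 at 0 min (SD, n = 2 each), and hsp9 rose by 1.24 ± 0.35 (SE, adjusted p = 0.0321 by limma). It was 1 of 9 members called at 240 min, against 9.86% of all probe sets, a share near the background. The call of hsp9 was lost without untreated culture 1, where its change was 0.81, and without untreated culture 2, where it was 1.67. Without untreated culture 2 the change of hsp16 was 2.67. Each of these values compares 1 array with 1 array of the same culture. The spread between untreated cultures is absent from them. At 120 min the change of hsp9 was 1.42 and missed the threshold (adjusted p = 0.0624), but passed with the culture as a block (adjusted p = 0.0265, with 3.18% of all). At 240 min 4 of the 14 mating and meiosis genes were called higher in the same cultures, against 5.89% of all probe sets called higher, and the part of mating in the change of hsp9 was not tested. At 60, 120 and 180 min limma called 0 members in untreated cultures, against 0.0402%, 1.13% and 5.53% of all probe sets, with 1, 1 and 3 members at an unadjusted p under 0.05, against 2.41%, 9.39% and 16.6%. At 240 min 2 members had one, against 22.6%.

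hsp90 stood lower late in untreated cultures. It had 24.1 at 0 min and 15.5, 15.7 and 16.3 at 120, 180 and 240 min in untreated culture 1, and 27.2, 23.9, 14.9 and 22.1 in untreated culture 2. At 180 min the stressed arrays had 22.5 and 26.4, against 15.7 and 14.9 in untreated ones. The change of hsp90 in untreated cultures at 180 min was -0.74 ± 0.23 (SE, adjusted p = 0.0725 by limma), which passed with the culture as a block (adjusted p = 0.0227, with 12.1% of all), and the difference of changes was 0.72 (adjusted p = 0.454). At this time both stressed arrays lay above both untreated ones for 8 of the 9 members, against 22.6% of all probe sets, and below them for sks2, against 34.3%. At 60, 120 and 240 min they lay above for 4, 7 and 4 members, against 25.1%, 22.6% and 19.9% of all, and at 60 min below for sks2, against 38.5%. The median change of the 9 members in untreated cultures at 180 min was -0.50, against -0.04 over all probe sets, so part of the gap at 180 min lies in lower untreated signals. In the difference of changes limma called 0 members at 60, 120, 180 and 240 min, against 0.0402%, 0.261%, 1.45% and 1.49% of all probe sets, with 0, 1, 2 and 0 members at an unadjusted p under 0.05, against 6.62%, 8.47%, 10.2% and 11.9%.

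At 0 min hsp9 stood higher in both stressed cultures than in both untreated ones, without passing the test. It had 26.4 and 14.9 in stressed cultures, against 6.38 and 11.5 in untreated ones, a difference of 1.21 ± 0.35 (SE, adjusted p = 1.0 by limma). limma called 0 members and 0.0% of all probe sets at 0 min, with 1 member at an unadjusted p under 0.05, against 1.31% of all. hsp9 was the member whose stressed arrays lay above both untreated ones, against 5.69% of all probe sets, and sks2 the one whose stressed arrays lay below, against 23.1%. The 14 mating and meiosis genes had a median difference of -0.55 at 0 min, against -0.10 over all probe sets. At 60 min hsp9 had 41.0 and 28.1 in stressed cultures, against 14.8 and 11.6 in untreated ones.

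Over the 32 arrays, the log2 signals of some members ran closest with hsp16 and those of others with hsp90, without a clean split. These correlations describe arrays that share cultures and times, and carry no test. That of ssa1 and psi1 was 0.92, of hsp16 and ssa1 0.79, of hsp16 and hsp9 0.78, and of hsp16 and psi1 0.71. That of hsp90 and ssa2 was 0.87 and of hsp90 and mas5 0.83, while hsp16 had 0.17 with hsp90, 0.00 with mas5 and -0.49 with sks2. ssa2 lay between, with 0.71 to ssa1 and 0.72 to psi1, although its signal moved little. hsp90 also had 0.56 with ssa1 and 0.52 with psi1. wos2 had 0.68 with hsp90 and with ssa2, and 0.62 with psi1 and 0.56 with ssa1. sks2 had 0.36 with hsp90 and 0.08 with ssa2.

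Among the other 2894 probe sets with 1 gene, those most like ssa1 by Pearson correlation over the 32 arrays were slt1 (0.97), tps1, the trehalose-6-phosphate synthase gene (0.95), and etr1 (0.93). Those most like psi1 were tps1 and the trehalase gene ntp1 (0.92 each) and slt1 (0.89). hsp16 had lsd90 (0.80), the protein repair methyltransferase gene pcm2 (0.78) and the membrane transporter gene caf5 (0.77) nearest, and hsp9 had ish1 (0.81), the sulfiredoxin gene srx1 (0.80) and mug191 (0.80). Around hsp90 and mas5 stood other chaperone genes. hsp90 had pss1, of the Hsp110 type (0.88), sti1, which links Hsp70 and Hsp90 (0.87), and the mitochondrial chaperonin gene mcp60 (0.84), and mas5 had mcp60 (0.94), the splicing factor gene sap49 (0.86) and pss1 (0.84). ssa2 had sti1 (0.88), the mitochondrial Hsp40 gene mdj1 (0.82) and ubx3 (0.81). wos2 had the cyclophilin gene wis2 (0.82), tip1 (0.77) and the kinase gene hri2 (0.76), and sks2 had the methionine synthase gene met26 (0.91), the succinate dehydrogenase gene sdh1 and the purine synthesis gene ade10 (0.86 each).

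Of a list of 50 further chaperone names, 24 were found, for 23 genes, since pdi2 and pdi3 are an older and the current name of 1 probe set: 11 of the cytosol, with hsf1 counted among them, 6 of the endoplasmic reticulum and 6 of mitochondria. limma called 0 of the 23 at any of the 10 stressed times, against 0.0% to 1.07% of all probe sets. Between 0 and 3 of the 23 had an unadjusted p under 0.05 at each time, with the most, 3, at 50 min, against 19.1% of all. With the culture as a block 1 was called by limma, ero12 at 30 min (0.80, adjusted p = 0.0473), against 8.17%. Its change there was 0.43 in stressed culture 1 and 1.17 in stressed culture 2, the latter on the array that stood apart. At 60 min 9 were higher and 14 lower, with a median change of -0.05, against -0.11 over all probe sets. The medians were -0.10 in the cytosol, -0.01 in the endoplasmic reticulum and -0.30 in mitochondria. The heat shock factor gene hsf1 had a change of 0.87 ± 0.53 (SE, adjusted p = 0.372 by limma), with 0.50 in culture 1 and 1.24 in culture 2. By the lowest F-test p of each class, the others to name are cdc37, which brings kinases to Hsp90 (0.18), cns1, an Hsp90 co-chaperone gene (-0.90), the disulfide oxidase genes ero11 (0.92) and ero12 (-0.01), the import motor gene tim44 (-1.04) and the mitochondrial co-chaperonin gene hsp10 (-0.25). tim44 at -1.09 and -0.99, and cns1 at -0.80 and -1.01, were lower in both stressed cultures, with adjusted p of 0.208 and 0.219.

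**Figure D4:**
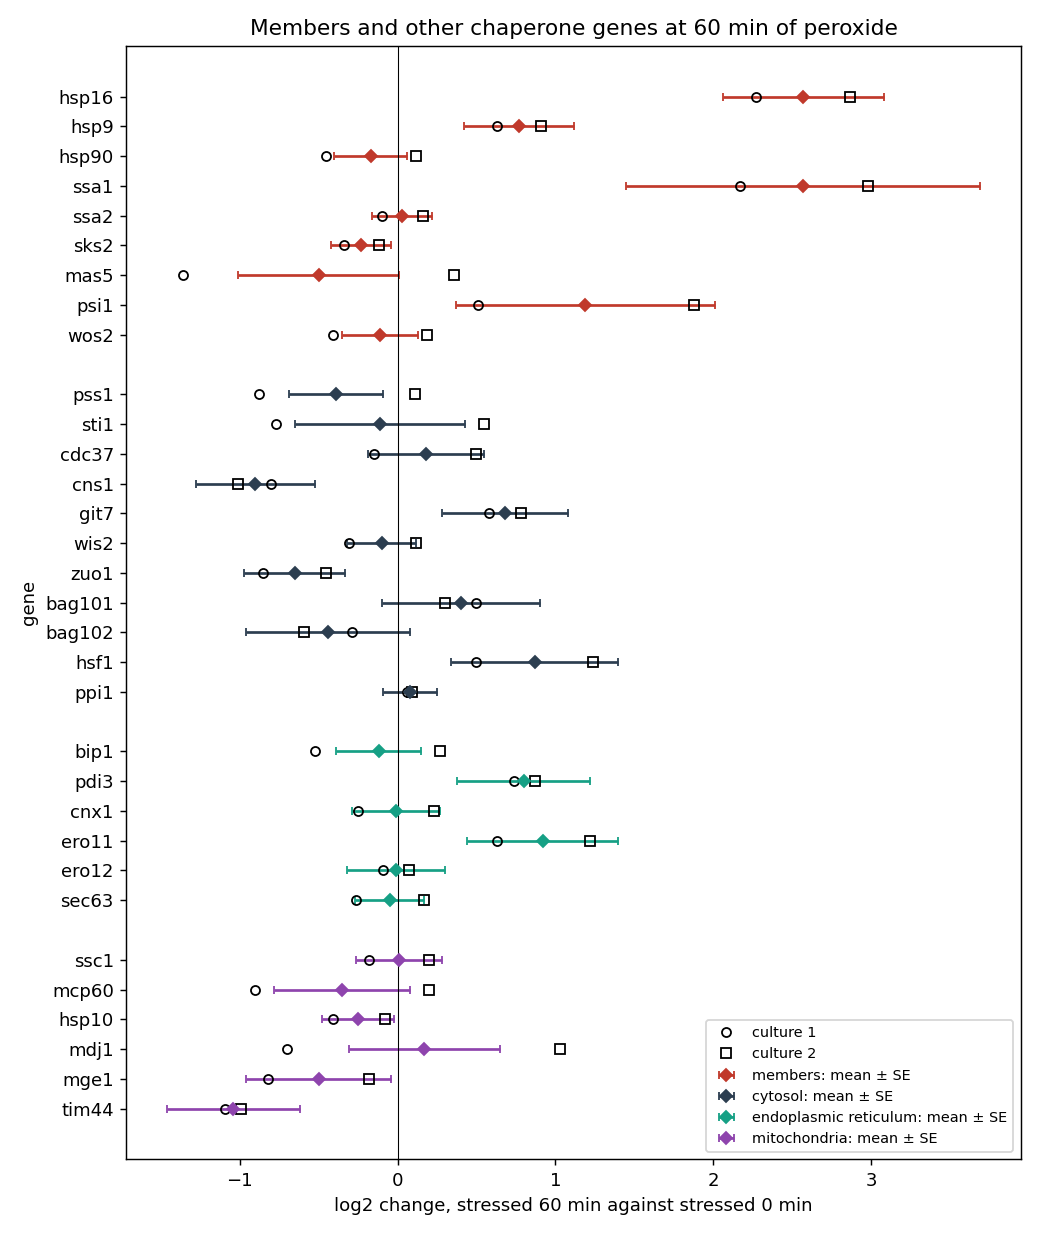
log2 change at 60 min of peroxide against stressed 0 min for the 9 members (red) and the 23 other chaperone genes of the cytosol (dark blue), endoplasmic reticulum (green) and mitochondria (purple); diamonds and bars are the fitted mean ± SE, open circles culture 1 and open squares culture 2. hsp16 and ssa1, both at 2.57, lie right of every other gene shown, and the other chaperone genes lie between -1.04 and 0.92.

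In untreated cultures this wider list stood lower late. Its median change was -0.36 at 180 min and -0.32 at 240 min, against -0.04 and -0.03 over all probe sets, with -0.47 in the cytosol, 0.28 in the endoplasmic reticulum and -0.57 in mitochondria at 180 min. wis2, a cyclophilin that works with Hsp90, fell by 1.29 at 180 min (SE 0.22, adjusted p = 0.00141 by limma), and its difference of changes, 1.30 ± 0.31 (SE), passed as well (adjusted p = 0.0424). ssc1, the mitochondrial Hsp70 gene, fell by 0.86 at 240 min (SE 0.27, adjusted p = 0.0493). In the list 1 of 23 was called at each of these times, against 5.53% and 9.86% of all probe sets. With the culture as a block 2 were called at 180 min, wis2 and sti1 (-1.49, adjusted p = 0.0209), against 12.1% of all. At 240 min 4 were, against 19.1%: ssc1, pss1 (-0.86), pdi3 (1.17) and ero12 (0.69).

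The transcripts of known stress regulators were not called after peroxide at 60 min. At 60 min the change was 1.61 ± 0.97 (SE, adjusted p = 0.365 by limma) for pcr1 and 1.14 ± 0.71 (adjusted p = 0.391) for atf1, which code for the subunits of a transcription factor acting under the kinase Sty1. It was 0.76 for pap1, the oxidant-sensing factor, 0.11 for prr1, a response regulator, 0.06 for the kinase gene sty1 and -0.62 for wis1, the gene of the kinase upstream of it. limma called 0 of these 7 genes, hsf1 included, at 60 min, against 0.543% of all probe sets. An unadjusted p under 0.05 was reached by 0 of the 7, against 18.9% of all. Of the 14 mating and meiosis genes 0 were called at 60 min, with a median of -0.11, the same as over all probe sets.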

How the data were processed

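The authors deposited a table of signal per probe set on a linear scale, from 0.0029 to 64.6, for 4972 probe sets on 32 single-colour arrays. Per the labels' protocols, in vitro transcription with biotin labelled the RNA. Background correction, summarisation and scaling of the arrays are not given in the sources used here, and detection calls were not used. Precision is limited by having 2 arrays in a group. Series, time and culture came from the sample titles.

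Gene symbols came from the platform annotation: 2903 probe sets had 1 symbol, 16 several and 2053 none, and 2900 of the 2903 matched a RefSeq gene table. Each of the 9 members had 1 probe set. Signals were log2-transformed without a pseudocount. limma 3.58.1 in R 4.3.3 fitted a mean for each group with lmFit and eBayes (residual degrees of freedom 16, prior 3.23), and p-values were two-sided, adjusted by Benjamini-Hochberg over all probe sets within each of 19 comparisons and the F-test, with a threshold of 0.05. The fit was tested on simulated data. The text names all members, further chaperone genes called at a stressed time or with the 2 lowest F-test p of their class, and the 3 genes most correlated with each member. wis2, ssc1, sti1, pss1 and pdi3, called in untreated cultures, were named after their values were seen. Members and lists were chosen with earlier results of these data known. Promoter and protein sequences were not used here.

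Each culture was followed through time, per the titles and growth notes, so arrays of 1 culture are paired within a series. The difference between culture 2 and culture 1 correlated over pairs of times with a median r of 0.707 in untreated cultures (lowest 0.362, 10 of 10 pairs above 0.1) and 0.259 in stressed ones (lowest -0.369, 34 of 55 above 0.1). Numbers do not tie stressed to untreated cultures. No 2 arrays held identical values. The alternatives, 16 in all, were other normalizations, a pseudocount of 0.1, filters, other sets of arrays, the culture as a block and leaving out cultures or single arrays.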

Additional observations from a re-analysis of the deposited data

Results flagged for a closer look

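The 9 members were compared at the 4 later times that both groups share. In 4 cases both stressed cultures stood above, and both untreated cultures below, their own 0 min arrays. The changes then had opposite signs in the groups, but some stressed changes were as small as 0.02. The share of all probe sets that did so is not given here, so the 4 cases are not set against a background. The difference of changes was tested by limma and passed in none of them. For mas5 at 240 min the changes were 0.13 and 0.05 in stressed cultures and -0.86 and -0.68 in untreated ones, a difference of 0.86 (adjusted p = 0.749). For hsp90 at 120 min they were 0.04 and 0.02 in stressed cultures and -0.64 and -0.19 in untreated ones, a difference of 0.44 (adjusted p = 0.78). For ssa2 at 120 min they were 0.03 and 0.24 in stressed cultures and -0.23 and -0.19 in untreated ones, a difference of 0.35 (adjusted p = 0.789). For wos2 at 120 min they were 0.02 and 0.23 in stressed cultures and -0.13 and -0.29 in untreated ones, a difference of 0.33 (adjusted p = 0.817).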

How the results depend on the processing

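Under 16 alternatives, 0 members were called at 0 min between the series, and 0 for the difference of changes at 60 min, wherever it could be computed. The count called at 60 min was 1, became 0 with only probe sets of 1 symbol, 2 with only the arrays compared (hsp16 and ssa1) and 2 with all 4 arrays of 0 min as the reference (hsp16 and hsp9), and ranged from 0 to 1 when a culture or array was left out. The count over all stressed times was 0 and became 1 with the arrays compared, with the early arrays (stressed arrays up to 60 min and all untreated ones) and with all 4 arrays of 0 min, and ranged from 0 to 1 with one left out. That of untreated cultures at 240 min was 1, and ranged from 0 to 1. Without untreated culture 1 or 2 each untreated time had 1 array, so the counts there hold no spread between untreated cultures. Without stressed culture 1 or 2 each stressed time had 1 array, and those counts hold no spread between stressed cultures. The small heat shock proteins less the large chaperones at 60 min, 1.12, became 1.06 after quantile normalization and 1.25 with all 4 arrays of 0 min, and ranged from 0.79 to 1.45 with one left out. hsp16 at 50, 60, 90 and 120 min kept its call under all other alternatives but lost it with only probe sets of 1 symbol, without either stressed culture or stressed 0 min array, and at 120 min with the arrays compared (adjusted p = 0.0848). It was called at 15 and 240 min without either untreated culture, with changes of 2.27 and 2.41. These are 1 fit and not 2, with the error from the stressed arrays alone. At 240 min it was also called with all 4 arrays of 0 min (adjusted p = 0.0427). With the culture as a replicate block the count at 60 min stayed at 1 (hsp16, adjusted p = 0.0268), and hsp9 in untreated cultures at 240 min kept its call (adjusted p = 0.016). The block added calls of hsp16 at 30 min and, in untreated cultures, of hsp9 at 120 min and hsp90 at 180 min, and changed no other call of a member in the comparisons it was run on. For these 3 results and hsp16 at 180 min, looked at after seeing the data, the adjusted p over all alternatives ran from 0.0171 to 0.471 for hsp16 at 30 min, 0.00423 to 1.0 at 180 min, 0.0265 to 1.0 for hsp9 and 0.0227 to 0.662 for hsp90. It was not run at 0 min, where it is confounded with the series. With all 4 arrays of 0 min ssa2 turned to -0.03, -0.01 and 0.00 at 15, 60 and 240 min, and with centred arrays sks2 turned to 0.02 at 15 min. With one culture or array left out, changes that had not passed turned sign and ranged as follows. At 15 min they were -0.04 to 0.06 for ssa2, -0.11 to 0.06 for sks2, -0.11 to 0.39 for mas5 and -0.14 to 0.18 for wos2 (-0.01 to 0.05 with a culture left out). At 60 min they were -0.45 to 0.12 for hsp90, -0.10 to 0.16 for ssa2, -1.36 to 0.36 for mas5 and -0.41 to 0.19 for wos2 (0.05 without the 0 min array of stressed culture 1). At 240 min they were -0.37 to 1.27 for hsp9, -0.04 to 0.13 for hsp90, -0.13 to 0.19 for ssa2, -0.12 to 0.03 for sks2, -0.66 to 2.09 for psi1 and -0.21 to 0.30 for wos2. The difference of changes at 60 min was -0.13 to 3.10 for hsp16, -0.44 to 0.76 for hsp9 (-0.26 without the 0 min array of stressed culture 2), -0.42 to 0.15 for hsp90, -0.38 to 4.08 for ssa1, -0.18 to 0.23 for ssa2, -1.31 to 0.41 for mas5, -0.49 to 1.77 for psi1 and -0.46 to 0.14 for wos2. The cause of these turns was not tested. With 2 arrays per group, and no known floor of the signal, changes of low signals such as those of ssa1 are the least certain.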
